A study of Mus musculus with 6 samples.

Results

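The receptors that hold haematopoietic stem cells (HSC) in the bone marrow were followed in HSC from Lig4mut mice and their wild-type (WT) littermates. The set has 9 genes, chosen by name: Cxcr4, Robo4, Tek, Itga4, Itga5, Itga6, Itgb1, Cd44 and Selplg. Every probe set whose platform annotation names exactly 1 of them was taken, which gave 25 of the 45037 probe sets tested and 9 of 18193 annotated genes. The HSC were sorted as CD150+ CD48- KSL cells from mice 6 to 8 weeks of age, born to Lig4mut/+ parents, and RNA of 3 Lig4mut and 3 WT (Lig4+/+) biological replicates was run on 1-colour Affymetrix expression arrays. Lig4 encodes DNA ligase IV, which rejoins broken DNA ends, and the study addresses the part of this enzyme in HSC maintenance. The sources used here state neither the nature of the mutation nor the number of mice behind a replicate.

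An HSC stays in its niche through a chemokine signal and through direct contact. The chemokine Cxcl12, made by stromal cells, acts on Cxcr4, a G protein-coupled receptor, and blocking Cxcr4 releases HSC into blood. Integrins are pairs of an alpha and a beta chain: Itgb1 joins Itga4 to form the receptor VLA-4 for Vcam1 and fibronectin, Itga5 to form the fibronectin receptor and Itga6 to form a laminin receptor. Tek (Tie2) is the receptor kinase for angiopoietins, Robo4 a guidance receptor of HSC and endothelium, Cd44 the hyaluronan receptor, and Selplg (PSGL-1) the ligand of P-selectin.

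Of the 9 genes, Cxcr4 and Itga4 were those whose probe sets all lay lower in Lig4mut HSC, so the 250 bases upstream of their RefSeq start sites are shown, from the RefSeq promoter table for GRCm38.p6, which held 7 of the 9 genes. The Cxcr4 stretch lies at chr1:128592300-128592549 (minus strand) and the Itga4 stretch at chr2:79255176-79255425 (plus strand). Capitals mark matches, on either strand, to the TATA box (TATAAA), the core of the NRF1 motif (TGCGCA) and the GC box (GGGCGG).
Cxcr4: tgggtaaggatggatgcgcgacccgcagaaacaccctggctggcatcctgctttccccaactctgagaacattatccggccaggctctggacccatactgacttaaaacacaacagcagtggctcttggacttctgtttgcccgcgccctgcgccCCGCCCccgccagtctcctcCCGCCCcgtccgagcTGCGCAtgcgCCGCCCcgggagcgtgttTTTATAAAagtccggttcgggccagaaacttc
Itga4: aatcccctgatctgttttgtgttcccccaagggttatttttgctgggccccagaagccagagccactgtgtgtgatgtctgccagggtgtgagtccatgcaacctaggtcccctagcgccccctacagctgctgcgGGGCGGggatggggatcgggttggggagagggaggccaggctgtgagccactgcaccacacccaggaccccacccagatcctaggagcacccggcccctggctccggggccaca
The Cxcr4 stretch holds overlapping TATA box matches that begin 32 and 30 bases before the start, and an NRF1 core match that begins 60 bases before it. It has 3 GC box matches and the Itga4 stretch 1. Of 32851 promoters of the same length, 12.4% hold the TATA box letters, 6.43% those of the NRF1 core and 32.7% the GC box. The letters of the Ets core (CGGAAG), held by 13.6% of promoters, are in neither stretch. A match is a description of the letters, and no binding was measured here.

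Levels are log2 values per probe set, quantile normalized across the 6 arrays. They cannot be set against each other between probe sets. Differences are Lig4mut minus WT, with the standard error (SE) from limma. The targeted gene came first as a check of the labels: Lig4 was at 4.97, 3.16 and 3.10 in Lig4mut replicates 1, 2 and 3 and at 7.53, 6.66 and 7.63 in those of WT, although whether its single probe set lies in the mutated part is not known. The 14 measured genes of a list of HSC markers had a mean level of 9.08 to 9.57 in Lig4mut and of 9.71 to 9.89 in WT, so all Lig4mut arrays lay lower. Of the 14, 4 were higher and 10 lower in Lig4mut, with a median difference of -0.58, and none passed the threshold (limma). Among the brightest probe sets of all genes 61.5% were higher. The 4 higher were Ctnnal1, Gfi1, Slamf1 and Fgd5, by 0.51, 0.26, 0.24 and 0.21, with overlap between the genotypes. The list is not confined to markers of the sorted cells. It also holds Cd48, on whose absence they were sorted, and Flt3 and Cd34. These 3 lay among the lower, by -0.72, -0.75 and -0.18, with overlap between the genotypes. Meis1, Hlf and Kit, which serve HSC maintenance and were named after their values were seen, lay lower in all Lig4mut arrays, by -1.65, -1.43 and -0.95. They were the only 3 of the 14 without overlap. Over all genes, 1028 of 18193 brightest probe sets lay fully apart and lower. The part of these marker differences in the receptor values was not tested. Slamf1 (CD150) was at 8.89 to 10.71 in Lig4mut and 9.17 to 10.17 in WT. In the values as deposited, the arrays correlated at r = 0.848 to 0.864 across probe sets within Lig4mut and at 0.940 to 0.950 within WT. Between the genotypes r was 0.866 to 0.900, so each Lig4mut array was closer to every WT array than to another Lig4mut array. The median SD of the receptor probe sets was 0.701 between Lig4mut arrays and 0.381 between WT arrays, against 0.457 and 0.304 over all probe sets. Xist, transcribed in females, was at 12.33 in Lig4mut replicate 2, at 12.52 in WT replicate 3 and at 4.84 to 5.82 in the other arrays, so 1 array of each genotype stood apart in it. With Xist as a covariate the Cxcr4 difference was -0.61.

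No receptor probe set passed the threshold, an adjusted p under 0.05 (limma, Benjamini-Hochberg over all probe sets), and neither did any other, so the background was 0%. The smallest adjusted p among the 25 was 0.134, for Cxcr4. At an unadjusted p under 0.05 there were 5 of the 25, of which 4 lay lower and 1 higher in Lig4mut, beside 17.7% of all probe sets (5.56% lower and 12.1% higher). Lig4mut and WT arrays lay fully apart for 6 of the 25, with 5 lower and 1 higher, beside 23.8% of all probe sets (7.35% lower and 16.4% higher). Both totals lay near the background, and among them the lower side held more of the 25 than its background share, with no test made of that. Probe sets of 1 gene share their target and are not independent. Without Lig4mut replicate 1, 9 of the 25 lay at an unadjusted p under 0.05, beside 20.2% of all probe sets in that fit, and 12 lay fully apart, beside 37.6%. Both background shares were thus higher in that fit as well. In all, 10 were higher, 14 lower and 1 was at the floor of the data on every array. The median difference was -0.22, beside 0.08 over all probe sets. By the brightest probe set of each gene, 7 of the 9 were higher with a median of 0.48, beside 0.18 for the brightest probe sets of all genes, so the sign of the median depends on how probe sets are taken.

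**Figure D1:**
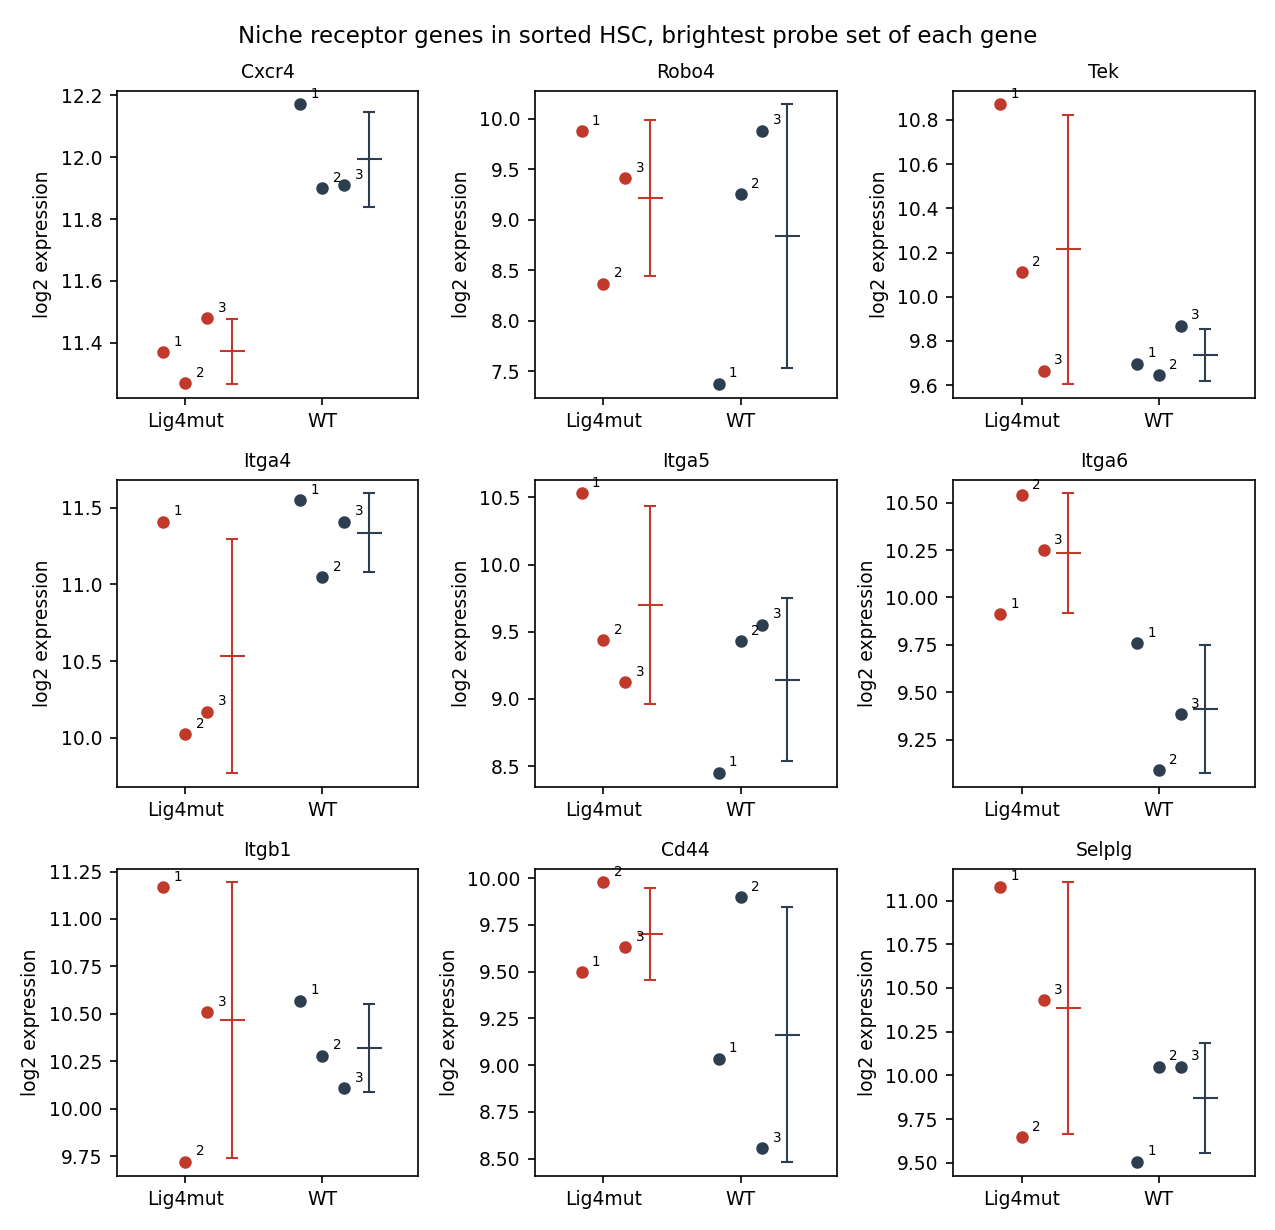
Log2 expression of the brightest probe set of each of the 9 receptor genes, one panel per gene with its own vertical range, Lig4mut on the left and WT on the right. Points are arrays numbered by replicate, and bars give the mean and SD (n = 3). The Cxcr4 arrays of Lig4mut, at 11.27 to 11.48, all lie below those of WT, at 11.90 to 12.17, and the Itga6 arrays of Lig4mut all lie above those of WT, while the other 7 genes overlap.

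Cxcr4 was lower in every Lig4mut array. Its single probe set, 1448710_at, was at 11.37, 11.27 and 11.48 in Lig4mut replicates 1, 2 and 3 and at 12.17, 11.90 and 11.91 in those of WT. The replicates lay close together in both genotypes (SD 0.11 in Lig4mut and 0.16 in WT, n = 3 each), and the gap between the nearest arrays was wider than either. The difference was -0.62 ± 0.13 (SE), 1.53-fold, with an unadjusted p of 0.00488 and an adjusted p of 0.134 (limma). With the arrays centred on their medians it was -0.28, where the median of all probe sets was itself 0.27, and in the values as deposited -0.60 against -0.04. In bulk RNA, fewer cells of a type and less RNA per cell cannot be told apart.

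Around Cxcr4, the list of its signalling and migration genes had 29 of 30 members measured, 12 higher and 17 lower, and none past the threshold (limma). The share higher was 41.4%, beside 61.5% of the brightest probe sets of all genes. At an unadjusted p under 0.05 there were 3 higher and 1 lower, beside 16.1% higher and 4.04% lower among the brightest probe sets of all genes. The lower one was Dpp4 (CD26), a cell-surface peptidase that cuts and inactivates Cxcl12. Dpp4 was at 6.44, 5.68 and 5.53 in Lig4mut replicates 1, 2 and 3 and at 8.59, 7.97 and 8.40 in those of WT. All Lig4mut arrays thus lay well below all WT arrays, a difference of -2.43 ± 0.31 (SE), 5.40-fold, with an adjusted p of 0.104 (limma). All 4 Dpp4 probe sets were lower, between -2.43 and -0.39, with a mean of -1.31.

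The 3 higher genes at an unadjusted p under 0.05 (limma) act in the signal itself. As 3 of 29, they were no more than the background of 16.1%. Rgs16, which shortens G protein signals, was at 7.23, 8.31 and 7.49 in Lig4mut and at 6.54, 6.61 and 6.54 in WT (difference 1.11 ± 0.31 SE, limma adjusted p = 0.185). Of its 3 probe sets 1 lay lower, and their mean was 0.37. Gnai3, an inhibitory G protein alpha subunit, differed by 0.56 ± 0.16 (adjusted p = 0.193), and Arrb2, the arrestin that uncouples and internalizes receptors, by 0.70 ± 0.23 (adjusted p = 0.234), both with each of 2 probe sets higher. Gnai2, the inhibitory subunit through which Cxcr4 mainly signals and named here after its values were seen, was at 11.38 to 11.77 in Lig4mut and 11.39 to 11.57 in WT. Ackr3, the other receptor of Cxcl12 and likewise named afterwards, was at 3.23 to 3.69 in Lig4mut and 3.07 to 4.34 in WT, near the floor of 3.

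**Figure D2:**
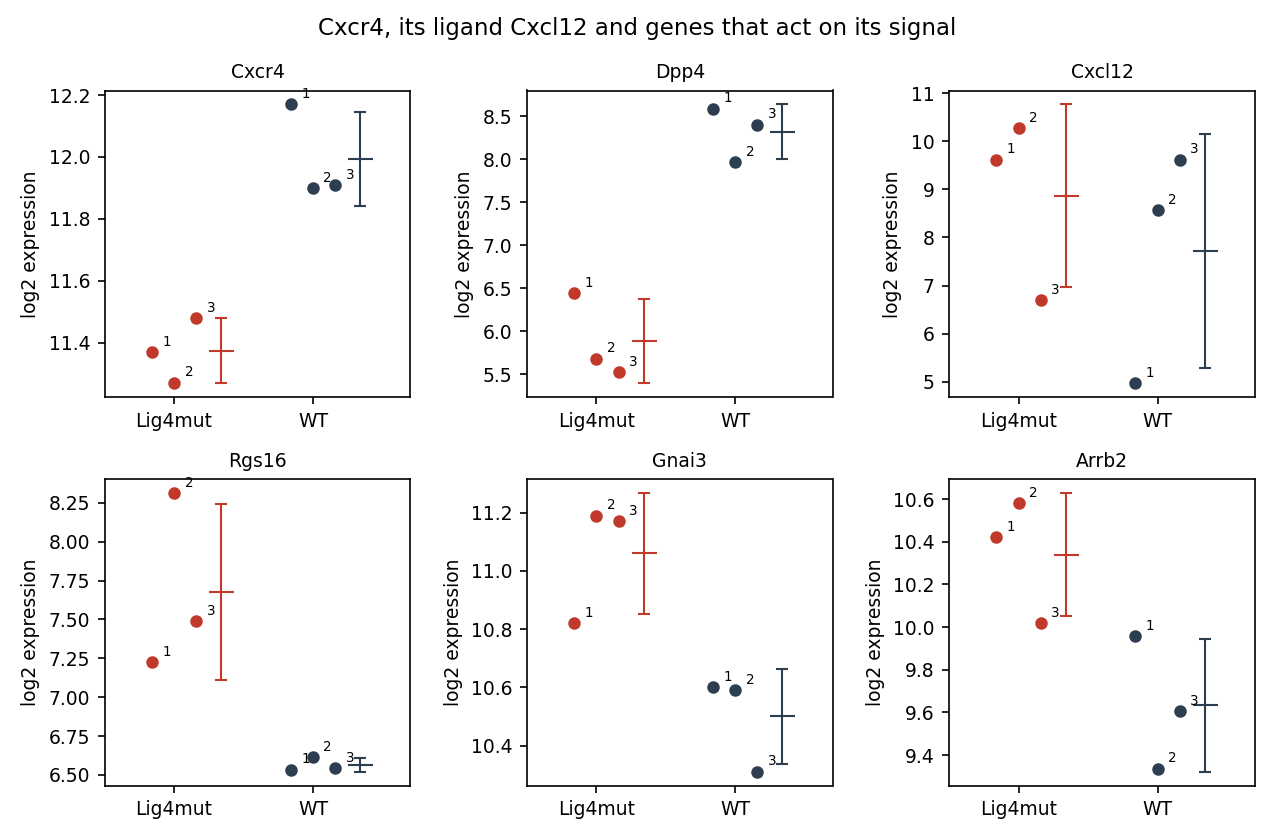
Log2 expression of Cxcr4, its ligand Cxcl12 and 4 genes that act on the ligand or the signal, at the brightest probe set, with a vertical range of its own in each panel. Points are arrays numbered by replicate, Lig4mut on the left and WT on the right, with mean and SD (n = 3). Cxcr4 and Dpp4 lie lower in all Lig4mut arrays and Rgs16, Gnai3 and Arrb2 higher, whereas Cxcl12 runs from 4.97 to 10.27 with overlapping genotypes.

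Itga4, the alpha chain of VLA-4, lay lower at each of its 5 probe sets, with differences from -1.17 to -0.42 and a mean of -0.69. The brightest, 1436037_at, was at 11.41, 10.02 and 10.17 in Lig4mut replicates 1, 2 and 3 and at 11.55, 11.05 and 11.41 in those of WT. Lig4mut replicate 1 lay among the WT arrays and the other Lig4mut arrays below them (difference -0.80 ± 0.43 SE, limma adjusted p = 0.408). Without that replicate the difference was -1.24. The probe set 1456498_at was at 8.29, 8.66 and 7.67 in Lig4mut and at 9.05, 9.64 and 9.44 in WT. Its genotypes did not overlap, and the difference was -1.17 ± 0.32 (SE), 2.25-fold, with an adjusted p of 0.182 (limma). For 1427615_at, which ran from 4.93 to 9.16 within Lig4mut, the difference of -0.57 ± 1.21 was far smaller than the spread. That of 1421194_at, -0.48 ± 0.55, was +0.02 without Lig4mut replicate 2, and the 1427615_at difference was +0.41 without it.

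Itgb7, the other beta chain that pairs with Itga4, was at 7.16 to 9.68 in Lig4mut and 7.27 to 8.53 in WT (limma adjusted p = 0.632, named after its values were seen). Itgb1, the shared beta chain, had 6 probe sets that did not move together. The brightest, 1426918_at, was at 11.17, 9.72 and 10.51 in Lig4mut replicates 1, 2 and 3 and at 10.57, 10.28 and 10.11 in those of WT. The Lig4mut arrays surrounded the WT arrays (difference 0.14 ± 0.40 SE, limma adjusted p = 0.901), and without Lig4mut replicate 1 the value was -0.20. Another bright probe set, 1452545_a_at, was at 10.49, 9.12 and 8.39 in Lig4mut and at 9.93, 10.20 and 10.01 in WT (difference -0.72 ± 0.56). In both, Lig4mut replicate 1 was the highest of the 6 arrays.

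The remaining Itgb1 probe sets were dim. Of these, 1426919_at lay lower in all Lig4mut arrays, at 4.17, 3.61 and 3.69 in Lig4mut and 4.53, 4.66 and 5.50 in WT (difference -1.07 ± 0.33 SE, limma adjusted p = 0.206). The suffix _x_at marks probe sets that may cross-hybridize with other transcripts, and the pair of that kind, 1426920_x_at and 1427771_x_at, differed by -0.52 and -0.13. The probe set 1438119_at was at the floor on all 6 arrays and gives no information on direction.

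**Figure D3:**
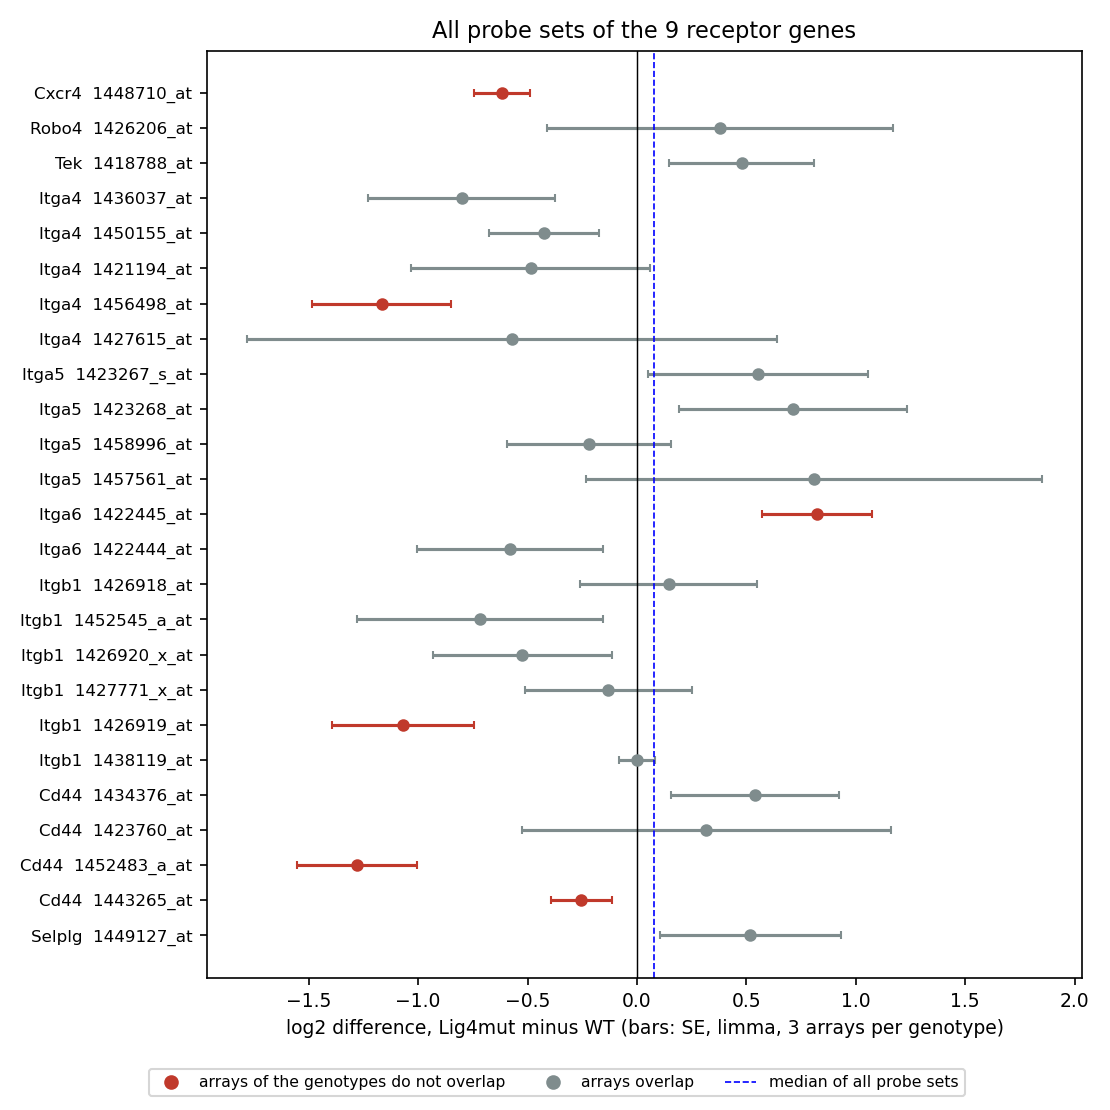
Difference between Lig4mut and WT on the log2 scale for each of the 25 probe sets, with SE bars from limma (3 arrays per genotype), sorted by gene and then by mean level. Red marks the 6 probe sets whose genotypes do not overlap, and the dashed line the median of all probe sets, 0.08. The 5 Itga4 points and the Cxcr4 point all lie to the left of 0, whereas probe sets of Itga5, Itga6, Itgb1 and Cd44 lie on both sides.

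Itga6, the laminin-binding alpha chain, had one probe set in each direction. At 1422445_at it was at 9.91, 10.54 and 10.25 in Lig4mut replicates 1, 2 and 3 and at 9.76, 9.09 and 9.38 in those of WT. All Lig4mut arrays lay above all WT arrays (difference 0.82 ± 0.25 SE, 1.77-fold, limma adjusted p = 0.209). At 1422444_at the values were 9.22, 8.74 and 10.12 in Lig4mut and 9.89, 10.36 and 9.57 in WT, with an overlap and a difference of -0.58 ± 0.43. The mean over both was 0.12.

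Itga5, the alpha chain of the fibronectin receptor, lay higher at 3 of 4 probe sets, with overlap at each. The brightest, 1423267_s_at, was at 10.53, 9.44 and 9.12 in Lig4mut replicates 1, 2 and 3 and at 8.45, 9.43 and 9.55 in those of WT (difference 0.55 ± 0.50 SE, limma adjusted p = 0.627). The highest array was Lig4mut replicate 1 and the lowest WT replicate 1. Without that Lig4mut array the difference was 0.14, and without WT replicate 1 it was 0.21. The other 3 probe sets differed by between -0.22 and 0.81, none with an adjusted p under 0.542.

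The list of other integrin subunits had 20 of 22 members measured, 15 higher, 4 lower and 1 with no difference, and none past the threshold (limma). The share higher was 75%, beside 61.5% of the brightest probe sets of all genes. At an unadjusted p under 0.05 there were 2 higher and 1 lower, near or below the background of 16.1% higher and 4.04% lower. Itgav, the alpha chain of the vitronectin receptor, was at 7.94, 7.77 and 8.34 in Lig4mut replicates 1, 2 and 3 and at 8.72, 8.73 and 9.11 in those of WT (difference -0.84 ± 0.21 SE, limma adjusted p = 0.162). Its genotypes did not overlap, but 1 of its 5 probe sets went the other way and their mean was -0.28. Itga3, a laminin-binding chain, differed by 0.60 ± 0.18 with all 3 probe sets higher (adjusted p = 0.201). Itgb6 and Itga7 differed by 0.38 ± 0.14 and 0.92 ± 0.36 (adjusted p = 0.255 and 0.291). Without Lig4mut replicate 2 that of Itga7 was 0.54, and in the values as deposited that of Itgb6 was 0.15. Itgb6 was dim, at 4.46 to 4.57 in Lig4mut and 3.90 to 4.29 in WT.

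Among 31 measured genes of integrin activation and focal adhesion, 14 were higher and 17 lower, 1 and 2 of them at an unadjusted p under 0.05 and none past the threshold (limma). Beside the 16.1% and 4.04% of all genes, that was under the background on the higher side and close to it on the lower. In direction alone 45.2% were higher, beside 61.5% of the brightest probe sets of all genes. Tln1, talin, which switches integrins on from inside the cell, was at 10.90, 10.72 and 10.97 in Lig4mut and at 11.61, 11.16 and 11.53 in WT. All Lig4mut arrays lay lower (difference -0.57 ± 0.16 SE, limma adjusted p = 0.192). Yet 1 of the 3 Tln1 probe sets lay higher, by 1.52, and the mean over all 3 was 0.27, in the other direction. Git2, a scaffold at focal adhesions, differed by -0.40 ± 0.12 (adjusted p = 0.203) and by -0.05 with arrays centred on their medians, while 1 of its 5 probe sets lay higher and their mean was -0.26. Bcar1 (p130Cas), an adaptor of integrin signalling, differed by 0.90 ± 0.26 (adjusted p = 0.193). Tln2 differed by 1.00 ± 0.54, and by 0.44 without Lig4mut replicate 2, which was at 7.51. Fermt3, kindlin-3, the integrin activator of blood cells, was at 11.92 to 12.20 in Lig4mut and 12.18 to 12.42 in WT (named after its values were seen).

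Among the 9 genes, Cd44 had the widest range of differences over its probe sets, from -1.28 to 0.54. The brightest, 1434376_at, was at 9.50, 9.98 and 9.63 in Lig4mut replicates 1, 2 and 3 and at 9.03, 9.90 and 8.56 in those of WT (difference 0.54 ± 0.38 SE, limma adjusted p = 0.532). The genotypes overlapped there through WT replicate 2, without which the difference was 0.91, and without WT replicate 3, the lowest array, it was 0.24. By contrast 1452483_a_at was at 7.73, 7.26 and 7.91 in Lig4mut and at 8.69, 8.69 and 9.35 in WT. All Lig4mut arrays lay lower, by -1.28 ± 0.28 (SE), 2.43-fold, with an adjusted p of 0.139 (limma). Cd44 transcripts are spliced in many forms, and the sources used here do not say which exons a probe set covers. The other probe sets, 1423760_at and the dim 1443265_at, differed by 0.32 ± 0.84 and -0.25 ± 0.14, the dim one without overlap, at 4.84 to 5.27 in Lig4mut and 5.28 to 5.36 in WT. Without Lig4mut replicate 3 the 1423760_at difference was -0.49.

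Selplg, which tethers cells to selectins on marrow vessels, was at 11.08, 9.65 and 10.43 in Lig4mut replicates 1, 2 and 3 and at 9.51, 10.05 and 10.05 in those of WT. The Lig4mut arrays spread across and above the WT range (difference 0.52 ± 0.41 SE, limma adjusted p = 0.579), and without Lig4mut replicate 1 the difference was 0.17. The protein binds selectins only after glycosylation and sulphation. All 16 genes of that list were measured, 8 higher and 8 lower, where 61.5% of the brightest probe sets of all genes were higher. At an unadjusted p under 0.05 there were 1 higher and 0 lower, no more than the background of 16.1% and 4.04%. None passed the threshold (limma). That gene was Fut7, the fucosyltransferase that completes the selectin-binding sugar, at 7.38, 7.54 and 7.29 in Lig4mut and at 6.72, 6.70 and 6.66 in WT. The genotypes lay apart by several times the SD of 0.13 in Lig4mut and 0.03 in WT (n = 3 each), and the difference was 0.71 ± 0.11 (SE), 1.64-fold (limma adjusted p = 0.112), or 0.44 in the values as deposited. Slc35c1, the transporter that brings GDP-fucose into the Golgi, differed by -0.37 ± 0.26 (adjusted p = 0.519), by -0.11 without WT replicate 2 and by -0.07 with arrays centred on their medians.

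Tek and Robo4, receptors that endothelial cells also carry, lay higher on average in Lig4mut with overlap. Tek was at 10.87, 10.11 and 9.67 in Lig4mut replicates 1, 2 and 3 and at 9.70, 9.65 and 9.87 in those of WT (difference 0.48 ± 0.33 SE, limma adjusted p = 0.52). The WT arrays lay close together (SD 0.12, n = 3), and 2 of the 3 Lig4mut arrays lay above them, so without Lig4mut replicate 1 the value was 0.15. Robo4 was at 9.88, 8.37 and 9.41 in Lig4mut and at 7.38, 9.25 and 9.88 in WT (difference 0.38 ± 0.79 SE, limma adjusted p = 0.854). WT replicate 1 was by far the lowest, and without it the difference was -0.35.

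The same WT array was the lowest in transcripts of endothelial cells. All 21 genes of a list of endothelial markers were measured and none was at the floor on all arrays. Their mean level was 9.68, 9.75 and 9.11 in Lig4mut replicates 1, 2 and 3 and 7.74, 8.92 and 9.38 in those of WT, and 19 of the 21 were higher in Lig4mut, beside 61.5% of the brightest probe sets of all genes. At an unadjusted p under 0.05 there were 4 higher and 1 lower, near the 16.1% and 4.04% above, and none passed the threshold (limma). The lower one was Erg, a transcription factor gene of endothelium and of HSC, at 11.16, 10.75 and 10.26 in Lig4mut and at 11.38, 11.34 and 11.37 in WT (difference -0.65 ± 0.25 SE, limma adjusted p = 0.28). The endothelial cadherin gene Cdh5, named after its values were seen like Erg, was at 10.90, 11.57 and 10.64 in Lig4mut and at 6.80, 10.12 and 10.28 in WT. The part of these transcripts in the levels of Robo4 and Tek was not tested. Tie1, the relative of Tek, was at 9.51 to 10.85 in Lig4mut and 9.68 to 10.49 in WT (named after its values were seen).

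**Figure D4:**
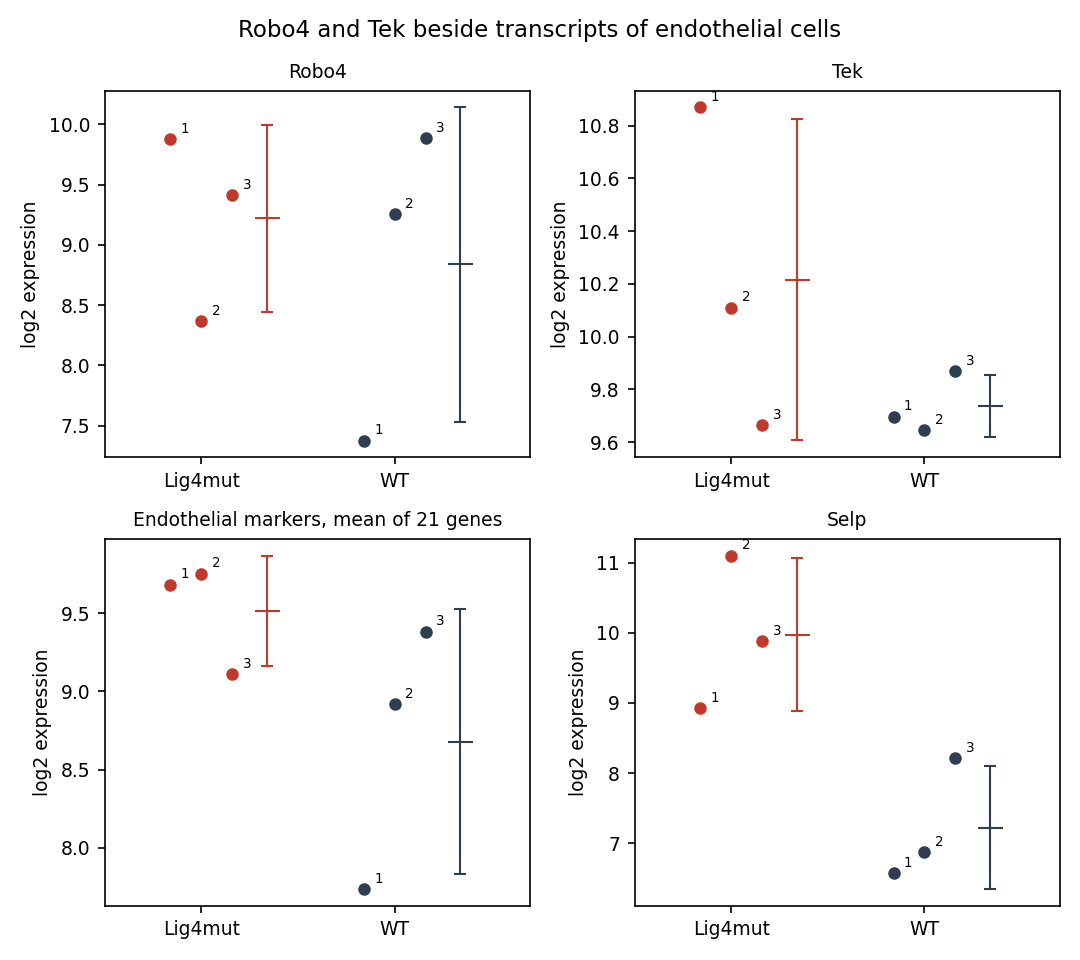
Log2 expression of Robo4, Tek and Selp at their brightest probe sets, and the mean over 21 endothelial marker genes, each panel with its own vertical range. Points are arrays numbered by replicate, Lig4mut on the left and WT on the right, with mean and SD (n = 3). WT replicate 1 is the lowest array for Robo4, at 7.38, and for the endothelial mean, at 7.74, but not for Tek.

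A list of niche ligands and related genes is not confined to ligands of the 9 receptors. It also holds Kitl, the ligand of Kit, and the hyaluronan synthase genes Has1, Has2 and Has3. Of its 28 genes 27 were measured, 23 of them higher and 4 lower in Lig4mut. Among the brightest probe sets of all genes 61.5% were higher. At an unadjusted p under 0.05 there were 6 higher and 0 lower, beside the 16.1% and 4.04% above, and none passed the threshold (limma). Selp, P-selectin, a partner of Selplg on endothelium and platelets, was at 8.92, 11.10 and 9.89 in Lig4mut replicates 1, 2 and 3 and at 6.57, 6.88 and 8.21 in those of WT. All Lig4mut arrays lay higher, by 2.75 ± 0.73 (SE), 6.71-fold (adjusted p = 0.176), and all 3 Selp probe sets did, with a mean of 1.58. The guidance ligands Slit2 and Slit1 differed by 0.79 ± 0.18 and 0.67 ± 0.16 (limma adjusted p = 0.151 and 0.161). Each had 1 probe set the other way, and the means over probe sets were 0.26 and 0.33. Slit2 was at 3.94 to 4.45 in Lig4mut and 3.24 to 3.56 in WT, near the floor of 3. Madcam1, a ligand of Itga4 with Itgb7, differed by 0.71 ± 0.19 (limma adjusted p = 0.174). It was dim as well, at 5.1 to 5.5 in Lig4mut and 4.5 to 4.9 in WT. The platelet markers, 9 measured of 10, had mean levels of 7.44 to 8.13 in Lig4mut and 7.41 to 7.84 in WT, and their part and that of endothelial transcripts in the Selp values was not tested.

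Cxcl12, Vcam1 and Angpt1, named outside the rule because they bind the 9 receptors and after their values were seen, overlapped between genotypes. They do not stand for the rest of the list. There 7 of 27 genes lay fully apart, all higher, beside 3833 higher of 18193 genes. The 7 include the laminin genes Lama2 and Lama1 and the hyaluronan synthase gene Has1, at 1.02, 0.73 and 0.49. In the values as deposited these were at 0.75, 0.42 and 0.18. Cxcl12 was at 9.62, 10.27 and 6.70 in Lig4mut replicates 1, 2 and 3 and at 4.97, 8.57 and 9.61 in those of WT (difference 1.14 ± 1.61 SE, limma adjusted p = 0.764). Vcam1, the ligand of VLA-4, was at 9.06 to 11.12 in Lig4mut and 7.93 to 10.99 in WT (adjusted p = 0.948). For both, the spread within each genotype was wider than the difference, and WT replicate 1 was the lowest array. Without it the differences were -0.23 for Cxcl12 and -0.60 for Vcam1. The 10 measured genes of a list of marrow stroma, which holds Cxcl12 itself, had mean levels of 6.45 to 7.64 in Lig4mut and of 6.31 to 7.19 in WT. Angpt1, the activating ligand of Tek, which HSC themselves transcribe, was at 10.68, 11.09 and 10.30 in Lig4mut and at 11.31, 11.37 and 11.01 in WT. The genotypes overlapped by 1 Lig4mut array, replicate 2 (difference -0.54 ± 0.24 SE, adjusted p = 0.343).

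Among 28 measured genes of a list of other adhesion and retention receptors, 13 were higher and 15 lower, 4 and 1 of them at an unadjusted p under 0.05 and none past the threshold (limma), close to the background of 16.1% and 4.04%. In direction alone 46.4% were higher, beside 61.5% of the brightest probe sets of all genes. Kit, the stem cell factor receptor, through which HSC also hold to membrane-bound ligand, was at 9.62, 9.56 and 10.35 in Lig4mut replicates 1, 2 and 3 and at 10.95, 10.70 and 10.73 in those of WT. Both its probe sets lay lower (difference -0.95 ± 0.25 SE, adjusted p = 0.177). On the higher side were Casr, the calcium-sensing receptor that helps HSC lodge at bone (0.64 ± 0.12, adjusted p = 0.125), the adhesion protein gene Cd99 (0.67 ± 0.14, adjusted p = 0.133) and the chemokine receptor gene Ccr7 (0.45 ± 0.12, adjusted p = 0.172). In the values as deposited these 3 were at 0.32, 0.67 and 0.23. Ccr7 was dim, at 4.28 to 4.51 in Lig4mut and 3.90 to 4.08 in WT, near the floor of 3.

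Granulocyte transcripts differed between arrays of 1 genotype more than between the genotypes. The mean level of 12 granulocyte genes was 5.90, 10.13 and 6.59 in Lig4mut replicates 1, 2 and 3 and 8.64, 7.41 and 7.58 in those of WT. Without Lig4mut replicate 2, the array highest in these genes, the Cxcr4 difference was -0.57, that of Itga4 -0.54, that of Selplg 0.89 and that of Itgb1 0.52 (brightest probe sets). The lists of B cells and of macrophages and dendritic cells had higher mean levels in all Lig4mut arrays, 6.15 to 6.97 and 7.19 to 7.71, than in the WT arrays, at 5.95 to 6.01 and 6.31 to 6.89. Differences of dim B cell genes moved with the scaling. In the values as deposited Pax5 differed by 0.36, against 0.68 here, and Cd79a by -0.15, against 0.16. The brighter Ighm differed by 0.72, against 0.84. The part of these transcripts in the receptor values was not tested.

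**Figure D5:**
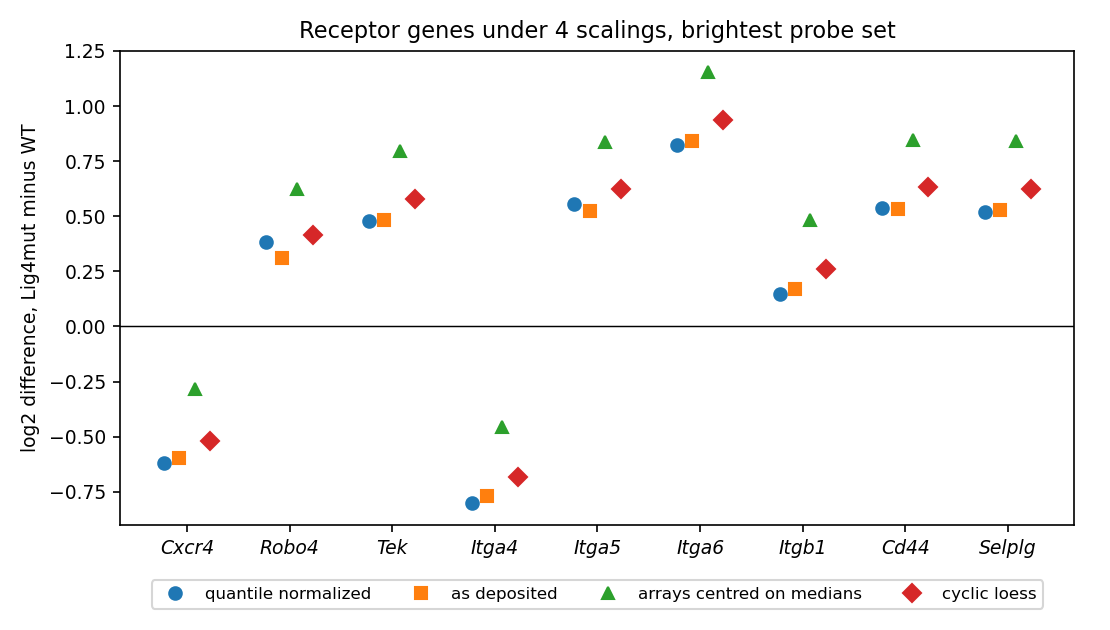
Difference between Lig4mut and WT on the log2 scale for the brightest probe set of each receptor gene, under quantile normalization, in the values as deposited, with arrays centred on their medians and with cyclic loess. Cxcr4 and Itga4 lie below 0 under all 4 scalings and the other 7 genes above 0, and centring gives the highest value of each.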

How the data were processed

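Gene expression was measured in sorted HSC of 3 Lig4mut and 3 WT replicates. The table deposited by the authors holds log2 values per probe set. RMA is named, without a version, in the submitters' processing notes. No value lies under 3, which every array reaches, so a floor of unstated origin was set. The labels name Trizol extraction and the usual Affymetrix cRNA labelling of total RNA, the design text an Ovation Pico amplification kit, and which of these labelled the arrays is not settled in the sources used here. Arrays have no depth, and their number limits the precision.

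Array medians of the deposited values were 5.97 to 6.05 in Lig4mut and 6.29 to 6.34 in WT, and 6.46% to 6.54% and 5.59% to 5.67% of values were at the floor. The values were therefore quantile normalized across the 6 arrays. Whether RMA was run on all 6 arrays together or on each genotype alone is not stated, and this bears on every difference given here. Of 45101 probe sets 64 controls were left out. Names came from GEO's platform annotation, with symbols of 34741 of 34945 single-gene probe sets updated to NCBI's GRCm38.p6 gene table. All 45037 probe sets were fitted with limma 3.58.1 (R 4.3.3, two-sided moderated test by lmFit and eBayes, no filter), with a threshold of 0.05 on the Benjamini-Hochberg adjusted p. The fit was also run on simulated data, with shifts larger than any receptor difference here and the same spread in both genotypes. That run cannot show how well differences of the size seen in the receptors are found. No exact permutation test was run, since its smallest p with 3 arrays per genotype is 0.1. Lists were read at each gene's brightest probe set, the one with the highest mean.

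All probe sets of the 9 genes are reported. Of each of the 6 other gene lists the text names up to 4 genes with the smallest p among those whose genotypes do not overlap, and of receptor genes that differ by at least 1 at the brightest probe set, those of similar pattern (none differed by that much). The rule does not cover the marker lists of cell types, whose genes were named after their values were seen. Members and lists were chosen with earlier results of these data known.

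The deviations of same-numbered arrays from their genotype means correlated at 0.05, 0.01 and -0.02, beside -0.05 to 0.04 for arrays of different number. With 3 arrays per genotype this cannot show whether the numbers mark a litter, day or batch, and the labels do not say so. Alternatives covered scaling, the replicate number as a block, each array left out, dim probe sets, probe set summaries, moderation, array weights and Xist as a covariate.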

Additional observations from a re-analysis of the deposited data

How the results depend on the processing

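No receptor probe set or gene passed the threshold under any of the alternatives run (limma). Of 144 differences recomputed for the 9 genes at their brightest probe sets under 16 alternatives, 140 kept their direction and 4 reversed: Cd44 was at -0.17 and Itgb1 at -0.38 as the average over a gene's probe sets, Itgb1 at -0.20 without Lig4mut replicate 1, and Robo4 at -0.35 without WT replicate 1. Some of the 140 could not reverse. The replicate block, the dim filter, 1 probe set per gene, and the variance trend with robust moderation leave the estimate of the main fit unchanged. So does the average over probe sets for a gene with 1 probe set. The 140 is therefore no measure of robustness. For Cxcr4 the range was -0.67 to -0.28 (adjusted p = 0.118 to 0.376), and for Itga4 -1.24 to -0.46 (adjusted p = 0.123 to 0.636). Leaving out 1 array gave -0.20 to 0.52 for Itgb1 and -0.35 to 0.90 for Robo4. The median difference of the receptor probe sets was -0.27 to 0.02 with 1 array left out, 0.48 with 1 probe set per gene and 0.12 as the average over a gene's probe sets, which also reduces the set to 9 values. Over all probe sets the number called was 0 with 7954 at an unadjusted p under 0.05, and with 1 array left out it was 0 for each array. It was 21 in the values as deposited, 1 with cyclic loess, 2 with 1 probe set per gene, 1 with a variance trend and robust moderation, and 182 at an adjusted p under 0.1, none of them a receptor. The cause of these shifts was not tested. Of the probe sets at an unadjusted p under 0.05, 68.5% were higher in Lig4mut, against 39.7% as deposited, 77.7% with centred arrays and 49.3% with cyclic loess. Counts added after seeing the data were the receptor probe sets at an unadjusted p under 0.05, 5 in the fit reported and 5 to 9 with 1 array left out (12.3% to 20.2% of all probe sets), and those without overlap, 6 and 6 to 12 (30.3% to 37.6% of all probe sets). With the replicate number as a block, 3 receptor probe sets lay at an unadjusted p under 0.05 and 0 passed the threshold (limma). What the replicate number marks is not known, so that fit is given as an alternative only. With dim probe sets left out the count was 3. For these fits the share of all probe sets under that p was not counted. Neither count can thus be set against a background, and the dim filter may also leave fewer receptor probe sets.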
